A study of Mus musculus with 2 samples.

Results

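Fibroblast growth factor (FGF) signaling was represented by 10 genes of the 29924 gene names on the arrays, chosen by name as 4 ligands (*Fgf7*, *Fgf9*, *Fgf10* and *Fgf18*), 2 receptors (*Fgfr1* and *Fgfr2*) and 4 genes that FGF signaling commonly induces (*Spry1*, *Spry2*, *Dusp6* and *Etv4*). All 10 were found on the arrays, through 15 probes. The study treated explanted ureters of wild-type NMRI mice, taken at postnatal day (P) 0, for 18 h with 5 µM IWP-2, which inhibits the acyltransferase PORCN and with it the secretion of WNT ligands. Control ureters received the solvent DMSO at a dilution of 1 part in 1000. RNA of 1 treated and 1 control pool of ureters was hybridized together on each of 2 two-colour arrays. Replicate 1 held female pools with the treated RNA in the red dye, and replicate 2 held male pools with the treated RNA in the green dye, so that sex and dye cannot be told apart. The comparison asked how the ureter's transcripts, here those of FGF signaling, change when WNT secretion is inhibited. Since whole ureters were used, fewer cells of a type and less RNA per cell cannot be told apart.

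FGFs are secreted ligands that bind receptor tyrosine kinases at the cell surface together with heparan sulfate, and activate the RAS, RAF, MEK and ERK kinase cascade in the receiving cell. ERK activity induces ETS factors such as ETV4 and a set of inhibitors, among them the Sprouty proteins and the phosphatase DUSP6, that dampen the pathway again. In many organs FGF7 and FGF10 are made by the mesenchyme and act on the epithelium through FGFR2, and such exchange between epithelium and mesenchyme also takes place in the urinary tract.

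The array sees each gene through 60-base probes, and the results on the ligands rest on the following stretches, given 5′ to 3′ as on the probe (build mm9, per the array files). The *Fgf18* stretch (chr11:33017474-33017499, minus strand) is shown because it is common to both *Fgf18* probes, which are therefore not independent of each other. For *Fgf10* (chr13:119580380-119580409, plus strand) and *Fgf7* (chr2:125916149-125916178, plus strand) the middle 30 bases of their only probe are shown. Of the stretches, 46.2% of the bases were G or C for *Fgf18* and 36.7% for each of *Fgf10* and *Fgf7*.
Fgf18: acgaggaaactgcgagaaaccaaagt
Fgf10: gacgttggattcttatttcactttgccatt
Fgf7: aatcatgcttatttccctctgtgattacag

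WNT feedback genes were lower with IWP-2 in both arrays. *Axin2*, a feedback inhibitor and direct target of WNT signaling, fell from a signal of 181 to 42.2 in replicate 1 and from 154 to 46.7 in replicate 2. Its log2 fold change was -1.91 ± 0.10 (limma moderated SE, 2 arrays; limma adjusted p = 0.000824). Every SE given here is of this kind and takes in the spread shared across genes, so it is not the spread between the 2 arrays alone. *Axin2* and the other tested genes of a list of 8 WNT feedback genes, 7 in all, were called lower, beside 0.886% of all genes tested. This list was chosen with earlier results of these data known. *Porcn*, whose product IWP-2 inhibits, had signals of 1791 and 1696 in the control and treated pools of replicate 1 and of 1920 and 1915 in those of replicate 2 (adjusted p = 0.958).

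Among the 10 FGF genes only *Fgf18* changed past the test, and it fell. Signals are background-subtracted intensities, normalized within each array, and their level is not comparable between probes. The arrays were not scaled to each other. Where both treated pools are said to lie above or below both control pools, this only describes the signals. The share of all genes with such an order was not counted. A gene was tested where its mean signal exceeded 100 in at least 1 condition, which held for 9 of the 10 genes and for 14336 genes in all, and it was called at a limma adjusted p below 0.05 over all of them. Of the 10 genes, 1 was called lower and 0 were called higher, while 0.886% of all genes tested were called lower and 0.363% higher. At an unadjusted p below 0.05 the count was 3 of the 9 genes tested, the other two being *Fgf7* and *Fgf10*, beside 1851 of all 14336 genes tested (12.9%), which is the share against which the unadjusted counts of the gene lists are to be read. By a filter at the study's thresholds, a control signal above 100 and a change of at least 1.5-fold, both asked here of each array and in the same direction, 1 of the 10 genes (*Fgf18*) was lower and 0 were higher, beside 0.363% and 0.0783% of all genes with such a control signal. The median log2 fold change over the 10 genes was 0.05, with 0.00 in replicate 1 and 0.04 in replicate 2. Over the 9 genes tested it was 0.01, with -0.03 in replicate 1 and 0.07 in replicate 2, and over all genes tested it was -0.01. The log2 fold changes were below 0 in both arrays for 2 of the genes, above 0 in both for 3 and of opposite sign for 5. Over all 14336 genes tested these counts were 4172, 3681 and 6479.

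**Figure D1:**
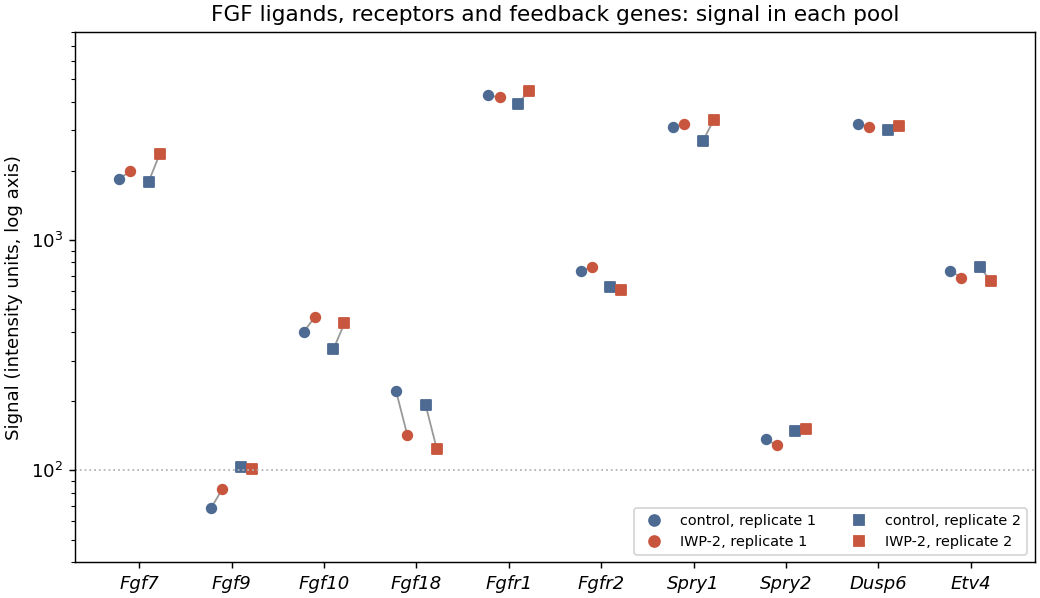
Signal (intensity units, log axis) of the 10 genes in the control (blue) and IWP-2 (red) pools of replicate 1 (circles) and replicate 2 (squares), with a grey line joining the pools of an array and a dotted line at the signal minimum of 100. The *Fgf18* signal drops from 221 to 143 and from 192 to 124, whereas the pools of the other genes lie closer together or differ in direction or size between the arrays.

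*Fgf18* encodes a ligand that acts preferentially on mesenchymal FGF receptors and is known from bone and lung development. Its brighter probe (chr11:33017440-33017499) gave 221 in the control and 143 in the treated pool of replicate 1, and 192 and 124 in those of replicate 2. Both treated pools lay below both control pools. The signal was 35.2% lower in replicate 1 and 35.3% lower in replicate 2, a log2 fold change of -0.62 and -0.63. The mean was -0.63 ± 0.07 (limma moderated SE, n = 2 arrays; 95% interval -0.79 to -0.47), 1.54-fold lower with IWP-2 (limma adjusted p = 0.0132). The dimmer probe (chr11:33017474-33017533), which shares the 26 bases printed above, gave 90.3 and 55.8 in replicate 1 and 84.7 and 54.7 in replicate 2, with log2 fold changes of -0.69 and -0.63. All 8 unflagged spots of both probes were lower with IWP-2 in each array, between -0.74 and -0.61 in replicate 1 and between -0.70 and -0.51 in replicate 2 before loess normalization. Ranked by log2 fold change from the lowest, *Fgf18* was at place 66 of 14336.

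The 2 arrays leave 1 residual degree of freedom, and limma shares the spread across genes. In the reported fit the SE of *Fgf18* was 0.066 and its limma unadjusted p was 5.05e-05. With no filter on signal the SE was 0.0011 and the limma unadjusted p was 0.00017. When genes with dim probes were tested as well, the limma adjusted p of *Fgf18* was 0.315 (no filter on signal) or 0.449 (genes well above background). It was 0.485 when the 4 channels were taken as unpaired. Over the whole array, 0 genes were called with no filter or among genes well above background, and 1 with the channels unpaired. Why the calls were lost was not tested.

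*Fgf10* and *Fgf7*, which encode mesenchymal ligands for the epithelial form of FGFR2, had higher signals in the treated pool of each array, but neither passed the test. *Fgf10* (chr13:119580365-119580424) gave 400.0 and 463 in replicate 1 and 335 and 435 in replicate 2. Both treated pools lay above both control pools. The log2 fold change was 0.21 and 0.38 in the 2 arrays, with a mean of 0.29 ± 0.07 (SE, n = 2 arrays; 95% interval 0.12 to 0.47; limma unadjusted p = 0.00628, adjusted p = 0.148). *Fgf7* (chr2:125916134-125916193) gave 1844 and 1991 in replicate 1 and 1790 and 2361 in replicate 2. Its treated pools, too, lay above both control pools, and the difference was larger in replicate 2. The log2 fold change was 0.11 and 0.40, with a mean of 0.25 ± 0.09 (SE, n = 2 arrays; 95% interval 0.05 to 0.46; limma unadjusted p = 0.0244, adjusted p = 0.270). These intervals depend on the genes in the fit. With no filter on signal they ran from -0.24 to 0.82 for *Fgf10* and from -0.67 to 1.18 for *Fgf7*, and both included 0.

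*Fgf9*, a ligand often made by epithelia that signals to the mesenchyme, was below the signal minimum and was not tested. Its probe (chr14:58728897-58728956) gave 68.9 and 83.1 in the control and treated pools of replicate 1 and 103 and 102 in those of replicate 2. The log2 fold changes of 0.27 and -0.02 differed in sign, and the signals of the control pools differed more between the arrays than those of treated and control pools within either array.

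**Figure D2:**
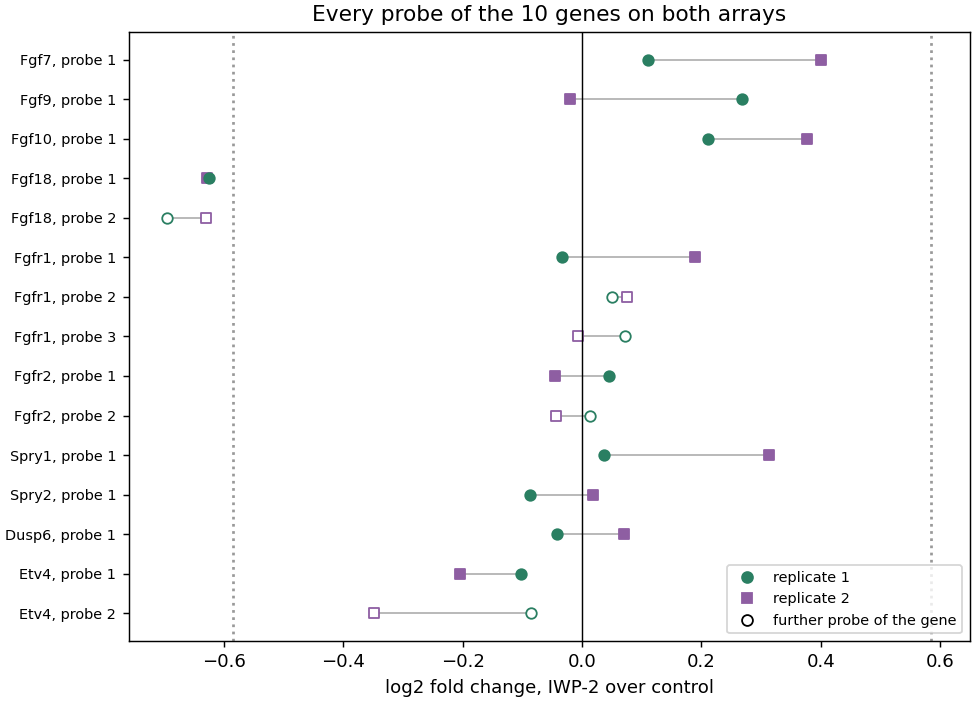
Log2 fold change of IWP-2 over control for each of the 15 probes in replicate 1 (green circles) and replicate 2 (purple squares); filled symbols mark the probe with the higher signal, open symbols further probes of a gene, and dotted lines a 1.5-fold change. Only the 2 *Fgf18* probes lie beyond a dotted line, on the lower side in both arrays.

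The receptors showed no change past the test. *Fgfr1* encodes the main mesenchymal receptor and was read by 3 probes. The brightest (chr8:26685072-26685131) gave 4263 and 4165 in the control and treated pools of replicate 1 and 3915 and 4462 in those of replicate 2. The log2 fold changes were -0.03 and 0.19, with a mean of 0.08 ± 0.08 (SE, n = 2 arrays; 95% interval -0.11 to 0.27; limma adjusted p = 0.864). The other two probes gave mean log2 fold changes of 0.06 and 0.03. The next probe (chr8:26684061-26684120) was above 0 in both arrays, and the dimmest (chr8:26685820-26685879) differed in sign between them.

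*Fgfr2*, whose product is the receptor for FGF7 and FGF10 in epithelia, gave 737 and 761 in replicate 1 and 626 and 607 in replicate 2 on its brighter probe (chr7:137307473-137307532). The log2 fold changes were 0.05 and -0.05, and the 95% interval of the mean ran from -0.17 to 0.17 (limma adjusted p = 1.000). The second probe (chr7:137307455-137307514) shares 42 bases with the first and gave 0.01 and -0.04. Which splice forms of *Fgfr2* the probes read was not examined.

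Of the 4 genes commonly induced by FGF signaling, none passed the test, and their log2 fold changes pointed in no common direction. *Spry1*, encoding an intracellular inhibitor of receptor tyrosine kinase signaling, gave 3106 and 3186 in replicate 1 and 2688 and 3341 in replicate 2 (chr3:37543403-37543462). Replicate 1 gave a log2 fold change of 0.04 and replicate 2 one of 0.31 (mean 0.18 ± 0.09, SE, n = 2 arrays; 95% interval -0.03 to 0.38; limma adjusted p = 0.505). In replicate 1 the pools were within 0.04 of each other, so the mean came largely from replicate 2.

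*Spry2*, a close relative of *Spry1*, gave 137 and 129 in replicate 1 and 149 and 151 in replicate 2 (chr14:106291845-106291904). Between the arrays the sign differed, with log2 fold changes of -0.09 and 0.02 (95% interval of the mean -0.20 to 0.13; limma adjusted p = 0.977). *Dusp6*, encoding a phosphatase that inactivates ERK and a widely used readout of FGF signaling, gave 3206 and 3114 in replicate 1 and 2997 and 3147 in replicate 2 (chr10:98729985-98730044). Log2 fold changes of -0.04 and 0.07 differed in sign (mean 0.01 ± 0.07, SE, n = 2 arrays; limma adjusted p = 0.995). The 95% interval for *Dusp6* ran from -0.15 to 0.18, which does not include a 1.5-fold change in either direction.

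*Etv4*, encoding an ETS transcription factor induced by FGF signaling, had lower signals in the treated pool of each array without passing the test. Its brighter probe (chr11:101631057-101631116) gave 737 and 687 in replicate 1 and 763 and 663 in replicate 2. Both treated pools lay below both control pools. This gave log2 fold changes of -0.10 and -0.20 (mean -0.15 ± 0.07, SE, n = 2 arrays; 95% interval -0.32 to 0.01; limma adjusted p = 0.452). The second probe (chr11:101631322-101631381) gave 190 and 179 in replicate 1 and 210 and 165 in replicate 2, with log2 fold changes of -0.09 and -0.35.

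**Figure D3:**
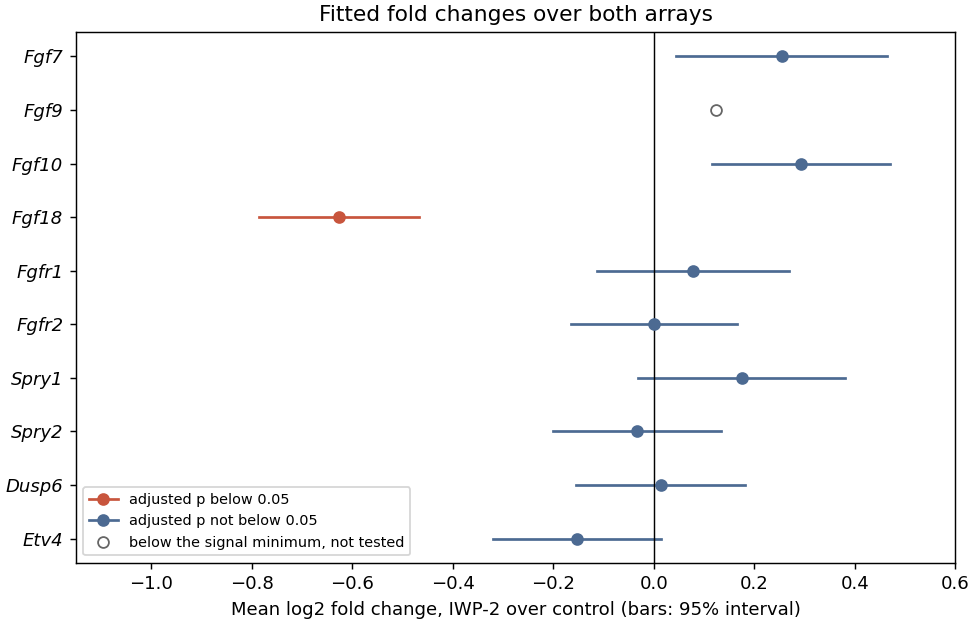
Mean log2 fold change of IWP-2 over control over the 2 arrays with its 95% interval from limma; red marks an adjusted p below 0.05, blue one that is not, and the open circle *Fgf9*, which was not tested. *Fgf18* stands at -0.63 with an interval of -0.79 to -0.47. In this fit the intervals of *Fgf7* and *Fgf10* lie above 0, and those of the other tested genes include 0. With no filter on signal the intervals of *Fgf7* and *Fgf10* include 0 as well.

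The rest of the FGF ligand family was mostly dim. Of 22 ligand genes, 6 were tested, and *Fgf18* was the only one called. Of the 22, 6 lay at the floor of 15 in all channels and 5 were not well above background in either condition. *Fgf1*, a ligand for all FGF receptors, gave 1837 and 1815 in the control and treated pools of replicate 1 and 1897 and 1723 in those of replicate 2 (adjusted p = 0.828). A dimmer *Fgf1* probe gave log2 fold changes of 0.43 and -0.06, where the first gave -0.02 and -0.14. The median log2 fold change of the 6 tested ligands was -0.03, with 3 at an unadjusted p below 0.05. That median includes *Fgf23*, whose second probe lay at the floor in every channel.

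Among receptors, coreceptors and binding proteins, 11 of 15 genes were tested, and 1 was called lower and 0 higher, with 5 at an unadjusted p below 0.05. This list also holds *Esrp1* and *Esrp2*, which encode regulators of RNA splicing. Of the 5 genes, *Esrp2* (mean log2 fold change 0.28) and *Flrt3* (0.29) were higher and the others lower. The gene called was *Flrt1*, encoding a membrane protein of a family that binds FGF receptors. It gave 694 and 512 in the control and treated pools of replicate 1 and 738 and 557 in those of replicate 2. The log2 fold change was -0.42 ± 0.07 (SE, n = 2 arrays; limma adjusted p = 0.0447), and a second probe gave -0.25 and -0.46. The remaining *Flrt1* probe was near the floor, with a highest signal of 20.3. With probes averaged, the mean of the 3 probes was -0.33 and the adjusted p was 0.169. The receptor genes *Fgfr3* (mean log2 fold change 0.03), *Fgfr4* (-0.14) and *Fgfrl1* (-0.02) had adjusted p-values of 0.977, 0.592 and 0.991. The median over the 11 tested genes was 0.00.

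Heparan sulfate, the sugar chain that FGFs need to bind their receptors, is set by a list of 21 enzyme and proteoglycan genes. All 21 were tested and 0 were called, with 6 at an unadjusted p below 0.05 (12.9% over all genes) and a median log2 fold change of -0.02. *Sulf1*, encoding a sulfatase that trims heparan sulfate outside the cell, gave 7173 and 4574 in replicate 1 and 5357 and 4496 in replicate 2 (log2 fold changes -0.65 and -0.25; limma adjusted p = 0.119). A second *Sulf1* probe gave -0.42 and -0.22. *Gpc4*, encoding a glypican, had log2 fold changes of -0.32 and -0.38 (adjusted p = 0.0811), while a dimmer second probe gave -0.02 and -0.05. *Hspg2*, encoding the basement membrane proteoglycan perlecan, had a mean of -0.21 (adjusted p = 0.274).

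In the cytoplasmic part of the pathway no gene was called. Of 27 adaptor and kinase genes, 25 were tested, 0 were called and 0 had an unadjusted p below 0.05, and the mean log2 fold changes ran from -0.12 to 0.13. At these ends were *Cbl*, encoding a ubiquitin ligase for activated receptors (adjusted p = 0.736), and *Pik3ca*, encoding a catalytic subunit of PI3 kinase (adjusted p = 0.523). *Akt1*, encoding the kinase AKT1, had a mean of -0.02.

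Of 28 ERK feedback and target genes, 25 were tested and 0 were called, with 4 at an unadjusted p below 0.05 (12.9% over all genes) and a median log2 fold change of -0.04. *Fos*, an immediate early gene, gave 0.27 and 0.45 in the 2 arrays (adjusted p = 0.103), and *Ier3*, another such gene, gave -0.30 and -0.33 (adjusted p = 0.103). The relatives of the feedback genes had means of both signs. *Dusp4* gave 0.28 and 0.30 (adjusted p = 0.119), *Dusp5* a mean of 0.02, *Dusp7* of -0.00 and *Dusp9*, with 0.57 and -0.07 in the 2 arrays, of 0.25 (adjusted p = 0.606). The means were -0.12 for *Spry4*, -0.09 for *Spred1* and -0.10 for *Spred2*. *Spred3* was below the signal minimum. *Il17rd*, encoding a membrane inhibitor of FGF signaling, had a mean of 0.09. The ETS genes *Etv1* and *Etv5* had means of 0.02 and -0.12, with adjusted p-values of 0.991 and 0.703. *Phlda1* and *Cic* had means of -0.05 and -0.04.

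Over the 5 lists of FGF pathway genes together, 79 genes other than the 10 were tested and 1 was called, beside 1.25% of all genes tested that were called in either direction. Other receptor tyrosine kinases and their ligands, which feed into the same cascade, had 21 of 26 genes tested and 0 called, with 4 at an unadjusted p below 0.05 (12.9% over all genes). *Hgf* had a mean of 0.30 (adjusted p = 0.138), *Kitl* of -0.24 (adjusted p = 0.228), *Pdgfra* of -0.11 and *Pdgfrb* of -0.07.

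**Figure D4:**
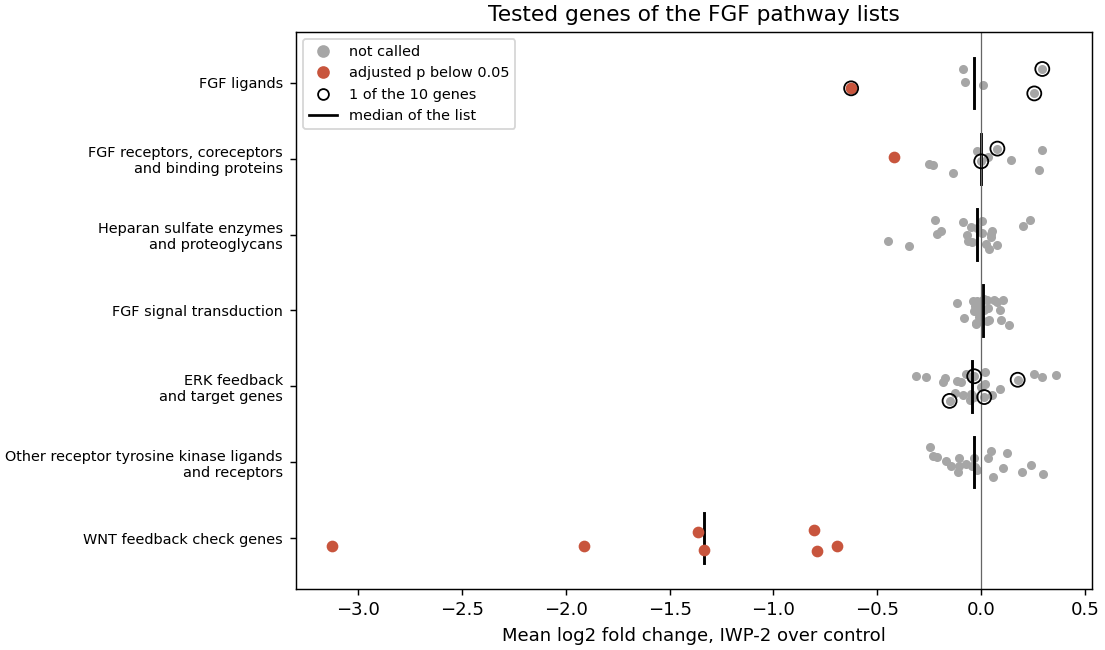
Mean log2 fold change of IWP-2 over control for the tested genes of 6 lists of FGF and other receptor tyrosine kinase genes and of the WNT feedback list. Each point is a gene, and red marks an adjusted p below 0.05. Rings mark those of the 10 genes that were tested, which leaves out *Fgf9*, and black bars mark the median of a list. The called genes outside the WNT feedback list are *Fgf18* and *Flrt1*, and the medians of the other lists lie between -0.04 and 0.01.

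Marker genes of the ureter's cell types were measured in the same pools. Defining markers of ureter were bright, with control signals of 26406 and 30997 for *Upk3a*, a uroplakin of the urothelium, and of 30498 and 28482 for *Acta2*, smooth muscle actin, whereas *Umod* of the kidney tubule lay at the floor in every channel and 0 of 8 kidney markers reached the signal minimum. Of 16 urothelium markers 11 were above 0 in both arrays, beside 25.7% of all genes tested, 9 had an unadjusted p below 0.05 and 1, *Shh*, was called higher (1.41-fold; adjusted p = 0.0447). Their summed signal went from 158220 to 199991 in replicate 1 and from 192555 to 199728 in replicate 2. Of 12 lamina propria and fibroblast markers 1 was called, *Aldh1a2*, which fell 1.55-fold (limma adjusted p = 0.0280). It encodes the retinoic acid synthesizing enzyme that marks lamina propria fibrocytes. Among the 12, 4 had an unadjusted p below 0.05. Besides *Aldh1a2* these were *Car3* and *Thy1*, with lower means of -0.64 and -0.48, and *Foxf1*, with a higher mean of 0.37. Below 0 in both arrays were 6 of the 12 markers, beside 4172 of all 14336 genes tested, and 2 were above 0 in both. The summed signal of the 12 went from 166524 to 141201 in replicate 1 and from 145724 to 147018 in replicate 2. None of the 10 smooth muscle, 7 endothelial and 8 macrophage markers was called, with 2, 1 and 2 at an unadjusted p below 0.05 (12.9% over all genes). In that order the list medians were 0.14, -0.06 and 0.12. The defining markers *Acta2*, *Pecam1* and *Adgre1* had means of 0.05, 0.11 and 0.26, so *Pecam1* differed in sign from its list median. Above 0 in both arrays were 5, 2 and 6 markers of these lists, and below 0 in both were 0, 2 and 1. The part of cell composition in the *Fgf18* and *Flrt1* values was not tested.

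Promoter sequence was searched for the core WNT response motif of TCF/LEF factors, ATCAAAG or its reverse complement CTTTGAT, in 300-base windows around the RefSeq start sites (GRCm38.p6). The motif was in 0 of the 8 promoters that were matched, those of *Fgf7*, *Fgf9*, *Fgf10*, *Fgf18*, *Fgfr2*, *Spry1*, *Spry2* and *Dusp6*, and in 3.73% of 32851 promoters in all. These letters were therefore not in the *Fgf18* window, which says nothing about more distant sequence.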

How the data were processed

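RNA of 2 control and 2 IWP-2 pools of P0 ureters was measured on 2 two-colour Agilent arrays, and groups, sex and dyes were taken from the sample labels. The deposited intensity values are the processed signals of Feature Extraction (12.2.0.7 per the file headers, 10.7.3.1 per the submitters' processing notes), in which the authors' scanner software had subtracted background and normalized the dyes. The deposited log10 ratio was used for the direction of the ratios. The deposited series table holds a score, the authors' signed fold change with 1 decimal, and served as an alternative; for 99.9% of the tested genes it was within 1.1-fold of the values here in each array, and how it was scaled is not given in the sources used here. Columns of other samples numbered 0.

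Control spots (17263) and flagged spots (3.32% and 3.22% of spots) were left out, and no spot was saturated. Loess within each array (limma 3.58.1 under R 4.3.3) was followed by the linear mean of the up to 4 spots per probe, a floor of 15 and log2. Where a gene had several probes, the brightest over the 4 channels was taken. Log2 ratios were tested against 0 with lmFit and eBayes, with Benjamini-Hochberg adjustment over all genes tested. The pools of an array are paired by the ratio. Both arrays lay on 1 slide with 1 scan time. The array files name mm9, and no annotation of that build was used, so exons and UTRs were not assigned.

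The 10 genes and all lists were chosen with earlier results of these data known. All 10 genes are named. From each pathway list the genes called, or otherwise the 2 with the largest mean change, and the 2 with the highest control signal are named. The relatives of the 10 genes, treatment checks and defining cell type markers are named as well. *Shh*, *Car3*, *Thy1*, *Foxf1*, *Esrp1*, *Esrp2*, *Flrt3*, *Dusp9* and *Fgf23* were chosen after their values were seen. A gene that this rule names is not reported here. With simulated data for IWP-2 over control, 50 genes were changed at each of the log2 sizes 0.6, 1, 1.5 and 2, among 14265 genes tested. Of those changed by 0.6, 100% were called, and 5.66% of all calls over the sizes together were unchanged genes. All genes were given noise of the same size there, so these shares need not hold for the arrays. Alternatives covered background, normalization, flags, floor, filters, probe summary, variance model, pairing and leaving out each array. The number of arrays limits the precision, and nothing in the labels shows more than 1 pool per channel.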

Additional observations from a re-analysis of the deposited data

Results flagged for a closer look

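The arrays of replicate 1 (female) and replicate 2 (male) gave log2 fold changes of opposite sign for 5 of the 10 genes. The male minus female difference was -0.29 for *Fgf9*, 0.22 for *Fgfr1*, -0.091 for *Fgfr2*, 0.11 for *Spry2* and 0.11 for *Dusp6*. With 1 array per sex, and dyes swapped along with sex, these differences were not tested. Of all 14336 genes tested, 6479 had opposite signs in the arrays.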

How the results depend on the processing

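The log2 fold change of *Fgf18* kept its direction under all alternatives, between -0.64 and -0.57. With a test it passed in 10 of 13 settings, with adjusted p-values from 0.00619 to 0.485 over the 13. It was not called with no filter on signal (0 of the genes lower; adjusted p = 0.315), among genes well above background (0 of the genes lower; 0.449) and with no replicate block, the channels unpaired (0 of the genes lower; 0.485). The spread shared across genes had prior degrees of freedom of 5.49 in the reported fit, and of 0.316, 0.614 and 2.56 in these 3 settings. *Fgf18* also missed 1.5-fold in 1 array or both (0 of the genes lower) with median centring, normexp or scale normalization between arrays. At a threshold of 2-fold in place of 1.5-fold, 0 of the genes were lower. Leaving out replicate 1 or 2, the count past 1.5-fold was 1 in each case, and the median of the 10 genes 0.045 and 0.0016. Median centring moved that median to 0.090 and all genes' median from -0.01 to 0.04, and reversed the sign of *Fgfr2* (0.040) and *Spry2* (0.0048). In single arrays, *Dusp6* (-0.042 to 0.070), *Fgfr1* (-0.033 to 0.19), *Fgfr2* (-0.046 to 0.045) and *Spry2* (-0.087 to 0.019) changed sign.

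Over all genes, 127 were called lower and 52 higher (70.9% lower). Calls were 108 lower and 85 higher (56.0%) with median centring, 154 and 100 (60.6%) with normexp, 163 and 97 (62.7%) with scale normalization, 85 and 32 with no further normalization, 50 and 17 with the mean over probes, 134 and 0 (100%) with an intensity trend, 1 and 0 with no replicate block, and 0 and 0 with no filter or among genes well above background. In the FGF lists, 2 genes were called lower (*Fgf18*, *Flrt1*). The count was 1 with the mean over probes, median centring, no further normalization or signal above 50, and 0 in the same 3 settings that lost *Fgf18*; *Flrt1* had adjusted p-values of 0.0313 to 0.485. Why the calls differed between settings was not tested.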
